A study of Drosophila melanogaster with 5 samples.

Results

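The genes described here make, package or take back the transmitters of Drosophila melanogaster other than acetylcholine, measured in neurons that had been sorted as cholinergic. They were chosen by gene symbol in the array's probe annotation: Ddc, ple, Vmat, VGAT, Gad1, VGlut, DAT, SerT, Tdc2 and Tbh. Of these 10 genes, 9 are named by a probe set with a single symbol, out of 10844 genes in all, and Tdc2 is not analysed here because no such probe set carries its name. Vmat has 2 probe sets, so the 9 genes rest on 10 probe sets.

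The cells carried UAS-GFP and a 7.4 kb Cha-Gal4 driver, named for the gene of choline acetyltransferase, which makes acetylcholine, and those with green fluorescence were collected by flow cytometry. There is 1 array of larval brain neurons, dissociated from the tissue, and there are 4 arrays (replicates a to d) of neurons from cultures of embryonic cells. Both groups share driver and reporter. Strain, sex and age are not given in the labels used here, and no array holds unsorted cells. Whether the 4 replicates were separate cultures is not said, so a p-value reflects the spread among these arrays alone, and that spread may be technical.

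A neuron releases a transmitter only if it can make it or take it up and load it into vesicles. Tyrosine hydroxylase (ple) and dopa decarboxylase (Ddc) make dopamine, and Ddc also completes serotonin synthesis. Tyrosine decarboxylase (Tdc2) and tyramine beta-hydroxylase (Tbh) make octopamine, and glutamate decarboxylase (Gad1) makes GABA. Vmat, VGAT and VGlut load monoamines, GABA and glutamate into vesicles, while DAT and SerT return dopamine and serotonin from outside the cell. In flies, ple and Ddc also act in the epidermis, where dopamine is a precursor for hardening and colouring the cuticle.

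Levels are probe set intensities on the authors' linear scale, which brings every array to a common trimmed mean. A signal was called above background when it exceeded the brightest of 23 controls on the same array, designed on bacterial, yeast or mouse genes. That limit was 82.6 for larval brain and 148, 200, 119 and 271 for a to d of embryo culture. A signal under it is not well above background, which does not show that the transcript was missing. Probe sets differ in brightness for the same amount of RNA, so levels are compared between arrays and not between genes.

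Ddc, ple, VGAT and the brighter Vmat probe set lay above background on all 5 arrays. These 4 of 9 genes compare with 41.2% of all genes that met the same criterion. Gad1 and Tbh lay at or under background on all 5 arrays, a position that 18.6% of all genes shared. VGlut did so on 4 arrays, DAT on 4 and SerT on 3. Neither share of the 9 genes is far from that of all genes. By these probe sets, transcripts of the dopamine enzymes and of the vesicular transporters for monoamines and GABA were measurable on every array. The dimmer Vmat probe set was under background on all 5. Gad1 for GABA and Tbh for octopamine were measurable on none, while Tdc2, the other octopamine enzyme, was not analysed.

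**Figure D1:**
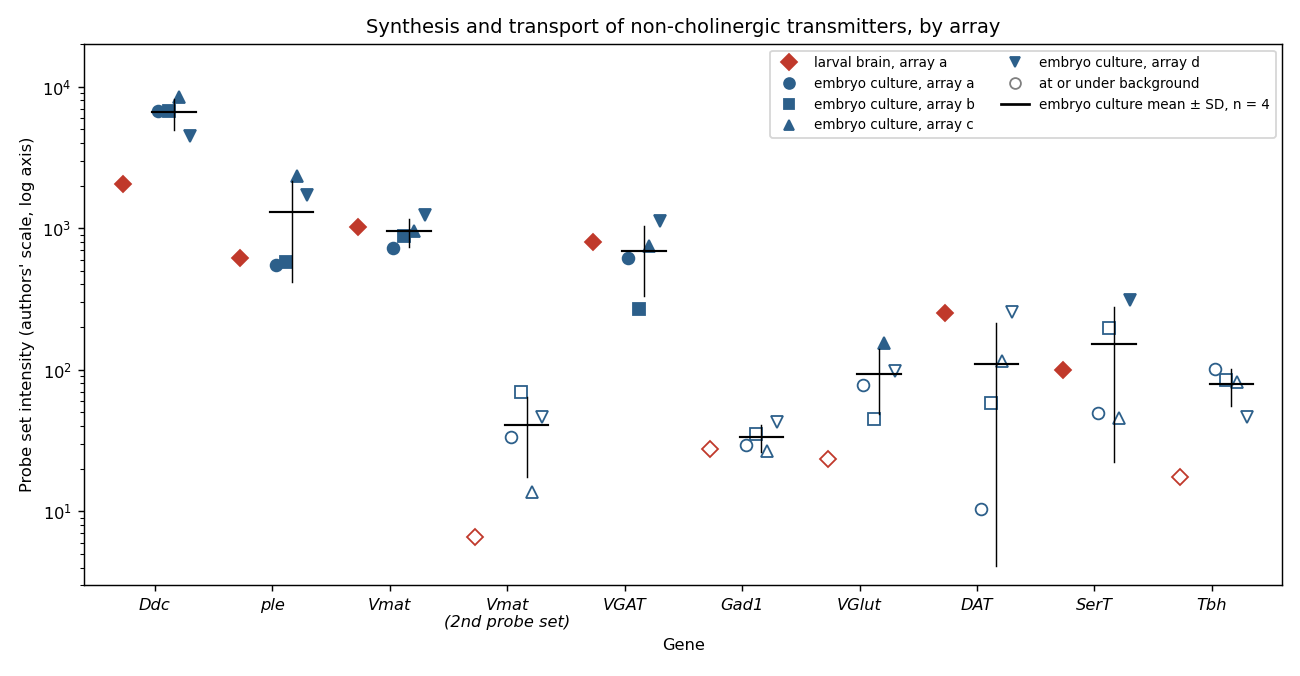
Intensity of each probe set (log axis) on the larval brain array (red diamonds) and on culture arrays a to d (blue), with the embryo culture mean ± SD (n = 4) as black lines and open symbols for signals at or under background. The Ddc value of larval brain, 2053, sits under all 4 embryo culture values, while those of ple, Vmat and VGAT lie inside the embryo culture range.

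None of the 9 genes passed the threshold between larval brain and embryo culture in the limma fit across all probe sets (adjusted p under 0.05), which does not show that they were alike. Over the whole array 3.26% of 13966 probe sets and 3.63% of genes passed. At an unadjusted p under 0.05 there was 1 of the 9, Ddc, against 17.3% of all genes. Differences are larval brain minus embryo culture on a log2 scale after adding 47.4 to each intensity, given with their standard error (SE). Of the 9 differences 3 were positive, against 46.3% of all genes, and the median of the 9 was -0.19, against -0.07 over all genes. Both figures include Gad1, Tbh, VGlut, DAT and SerT, which lay at or under background on most arrays. Among the genes above background on every array, the differences of Ddc and ple were negative and those of Vmat and VGAT positive. The precision was low: the SE of the 9 genes ran from 0.33 to 0.88, and the smallest difference that passed anywhere on the array was 1.35. The spread comes from embryo culture alone, and the lone larval array is taken to share it, and a two-sided exact permutation test of 1 array against 4 cannot give a p under 0.2.

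Among the enzymes of dopamine and serotonin synthesis, Ddc had an intensity of 2053 in larval brain, against 6728, 6767, 8429 and 4469 on culture arrays a to d. Larval brain was the lowest of the 5 arrays, and the groups did not overlap. Ddc was 1 of 3 genes of the 9 with a larval brain value below the whole embryo culture range, a position that 29.6% of all genes shared, and 0 lay above that range, against 26.2% of all genes. The other two, VGlut and Tbh, were under background in larval brain. The mean in embryo culture was 6598 ± 1626 (SD, n = 4). The log2 difference of Ddc was -1.63 ± 0.44 (SE), with a 95% interval from -2.62 to -0.63 and a limma adjusted p of 0.0908, so it did not pass the threshold. Without any 1 of the embryo culture arrays the difference lay between -1.80 and -1.50, with adjusted p from 0.0662 to 0.193.

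The tyrosine hydroxylase gene ple, whose enzyme catalyses the rate-limiting step before Ddc, had 611 in larval brain, against 548, 579, 2319 and 1718 on culture arrays a to d. The culture arrays divided into a low pair (a and b) and a high pair (c and d), and larval brain stood just above the low pair. The log2 difference was -0.76 ± 0.75 (adjusted p = 0.685), with an interval from -2.47 to 0.94. It was -1.07 without array a and -0.40 without c. The highest embryo culture value of ple was 4.23 times the lowest. For comparison, this ratio had a median of 1.91 over the 4470 genes above background on every array, and a 90th percentile of 3.32.

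Other measurements differed along with that division of the culture arrays. The summed intensity of 11 pan-neuronal genes was 15010 in larval brain, against 4746 and 5276 on a and b and 5769 and 7098 on c and d. Its members were not alike: elav, an RNA-binding protein of neurons, had 3047 in larval brain, against 104, 61.4, 713 and 667 on a to d. The vesicle chaperone gene Csp ran the other way among the culture arrays, with 3044 in larval brain, against 2691, 2625, 1954 and 2089. The index of 3′ bias, the mean log2 ratio of 3′ to middle signal of 3 control messenger RNAs, was 1.15 in larval brain, against 2.45, 2.35, 1.49 and 1.66. Like the 3′ index, and unlike the pan-neuronal sum, the intensity of hemocyte markers was lowest in larval brain and highest on a and b. Summed over 11 blood cell genes it was 1566 in larval brain, and 11077 and 12290 on a and b. On c and d it was 2103 and 2431. The part of each in the ple values was not tested. With the 3′ index as a covariate the difference of ple became -2.55 ± 0.44 (adjusted p = 0.0159), a fit that extrapolates, since the larval brain index lies outside the embryo culture range.

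The vesicular monoamine transporter gene Vmat had, by its brighter probe set, 1012 in larval brain, against 723, 875, 959 and 1241 on culture arrays a to d. Larval brain lay inside a narrow culture range, with a log2 difference of 0.11 ± 0.42 (adjusted p = 0.925) and an interval from -0.84 to 1.07. The other probe set gave 6.60 in larval brain, against 33.6, 69.1, 13.6 and 46.5 in embryo culture, all under background. The 2 probe sets of this gene therefore disagree on whether it is measurable at all. The RefSeq gene table lists CG33528, CG6119 and CG6139 as identifiers of Vmat, and which gene model either probe set was designed on is not given in the sources used here.

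The plasma membrane transporter genes were dim. DAT had 251 in larval brain, above background there, against 10.4, 58.3, 116 and 254 on culture arrays a to d, each at or under its own background. On c and d it exceeded the second highest control, at 108.7 and 248.5, so its place under background there depends on the control taken. The larval brain signal of DAT was 1.43 times the geometric mean of the 4 culture backgrounds, but under the background of array d (271). The fitted log2 difference of DAT was 1.18 ± 0.88 (adjusted p = 0.574), with an interval from -0.79 to 3.16. Array d had both the highest DAT signal in culture, close to that of larval brain, and the highest background. SerT had 99.9 in larval brain, against 49.4, 196, 45.6 and 312, with only d of the culture arrays above background. On b it exceeded the second highest control, at 149.1. The log2 difference of SerT was -0.19 ± 0.87 (adjusted p = 0.942).

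Tbh, which converts tyramine to octopamine, had 17.6 in larval brain, against 101, 85.1, 81.9 and 46.4 on culture arrays a to d. All 5 values are under background, so that their order carries no comparison of levels.

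For GABA, the transcript of the vesicular transporter was measurable on every array and that of the enzyme on none. VGAT had 802 in larval brain, against 611, 267, 747 and 1127 on culture arrays a to d. Larval brain was second only to d, and array b was the lowest. The log2 difference was 0.36 ± 0.66 (adjusted p = 0.838), with an interval from -1.12 to 1.84, so that its sign was not resolved at this spread. It was 0.63 without array d and 9.28e-06 without b. The culture values spanned 4.22-fold, about as far as those of ple but in another order of arrays. Gad1 had 27.6 in larval brain, against 29.5, 35.3, 26.5 and 42.9, the flattest profile of the set and under background throughout.

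VGlut, which fills vesicles with glutamate and marks the motor neurons of flies, had 23.5 in larval brain, against 78.3, 45.0, 153 and 98.1 on culture arrays a to d. Only array c was above background. The log2 difference was -0.94 ± 0.58 (adjusted p = 0.493).

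**Figure D2:**
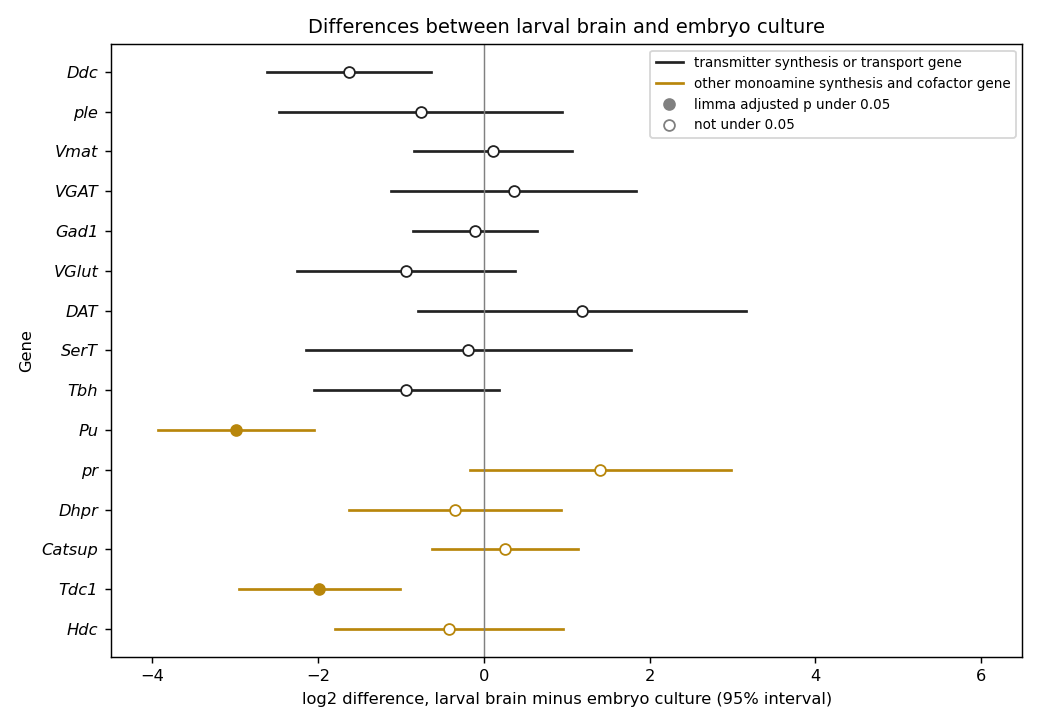
The log2 difference, larval brain minus embryo culture, with its 95% interval, for the 9 transmitter genes (black) and for 6 further genes of monoamine synthesis and its cofactor (gold); filled points passed the limma threshold. The 9 intervals in black include 0 except that of Ddc, and the 2 filled points are Pu at -2.99 and Tdc1 at -1.99.

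Tyrosine hydroxylase needs the cofactor tetrahydrobiopterin, and genes that supply it were measured beside ple. The list of other monoamine synthesis and cofactor genes also holds Tdc1, Hdc and Catsup, which have other roles. Of its 6 measured genes, 2 fell and 0 rose, against 2.81% and 0.821% of all genes. The 2 were Pu and Tdc1, so that of the cofactor genes Pu, pr and Dhpr only Pu passed. The list's median difference was -0.38. Pu, which encodes GTP cyclohydrolase, the first enzyme of cofactor synthesis, had 121 in larval brain, against 1326, 1193, 1649 and 1069 on culture arrays a to d. The groups lay far apart, with a log2 difference of -2.99 ± 0.42 and an adjusted p of 0.00567. Under 13 alternative settings it ran from -4.12 to -2.44, with adjusted p from 0.00177 to 0.0247.

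Tdc1, described in flies as the non-neural tyrosine decarboxylase, had 299 in larval brain, against 1592, 1277, 1592 and 951 on culture arrays a to d. It fell by 1.99 ± 0.43 on the log2 scale (adjusted p = 0.0412). That call was lost in 8 of 13 alternatives, without a, b or c among them (adjusted p 0.0834, 0.0870 and 0.0802), over a range from 0.0157 to 0.113. Tdc1 and the neural gene Tdc2 share the identifier CG3686 in the RefSeq table. Which of the transcripts this probe set reads is not given in the sources used here.

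The remaining genes of the list did not pass. The gene pr, whose enzyme follows GTP cyclohydrolase in cofactor synthesis, had 790 in larval brain, above all 4 culture values of 212, 121, 460 and 402 (log2 difference 1.41 ± 0.70, adjusted p = 0.376). Catsup, known in flies as a negative regulator of tyrosine hydroxylase, had 1019 in larval brain and 849 ± 82.0 (SD, n = 4) in embryo culture. Dhpr, which encodes a reductase that regenerates the cofactor, had 641 in larval brain and 899 ± 414 in embryo culture. Hdc, the histamine enzyme of photoreceptors, lay at or under background on all 5 arrays. Trhn and Hn, the hydroxylases for serotonin synthesis, were not analysed here.

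**Figure D3:**
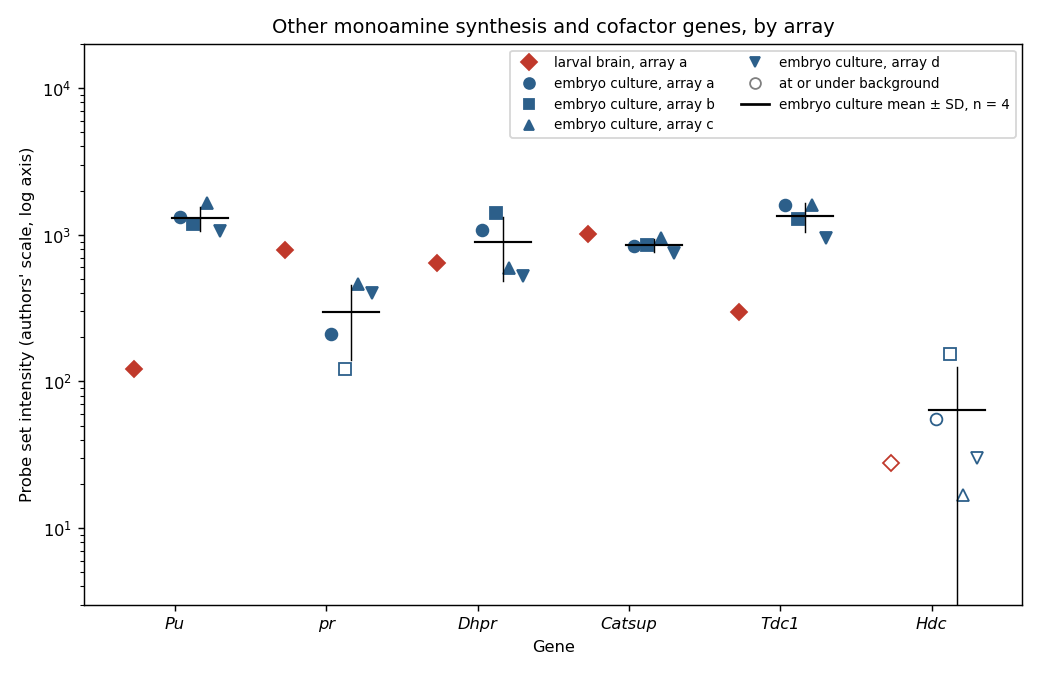
Intensity (log axis) of 6 further genes of monoamine synthesis and cofactor supply on the larval brain array (red diamonds) and culture arrays a to d (blue), with the embryo culture mean ± SD (n = 4); open symbols are at or under background. Pu and Tdc1 in larval brain, at 121 and 299, sit under all 4 embryo culture values, while pr at 790 sits above them.

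Genes that consume dopamine or tan the cuticle gave no call. Of 8 measured genes of this list, 0 passed, against 3.63% of all genes, and 2 had an unadjusted p under 0.05, against 17.3%. The list's median difference was -0.41. The yellow gene y, which acts in cuticle pigmentation, had 201 in larval brain, against 5621, 3670, 1129 and 1180 on culture arrays a to d (log2 difference -3.24 ± 0.81, adjusted p = 0.0723). The gene speck, an N-acetyltransferase of monoamines, had 723 in larval brain, against 174, 132, 261 and 95.3 (1.91 ± 0.67, adjusted p = 0.191). The gene e (ebony), which couples dopamine to beta-alanine, had 324 in larval brain and 577 ± 214 in embryo culture. The Ddc relative amd had 449 in larval brain and 648 ± 137 in embryo culture by its brighter probe set, while its other one gave 162 in larval brain, above background, and was under background on all culture arrays. The gene yellow-f had 132 in larval brain and 375 ± 222 in embryo culture.

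Genes that recycle GABA and glutamate gave no call either. Of 11 measured genes 8 lay above background on all 5 arrays, against 41.2% of all genes. The test was passed by 0, against 3.63% of all genes, and 0 had an unadjusted p under 0.05, against 17.3%. The median difference was 0.10. Eaat2, a transporter of acidic amino acids, had 2894 in larval brain, above the 1595 ± 632 (SD, n = 4) of embryo culture (log2 difference 0.92 ± 0.49, adjusted p = 0.424). Glutamate dehydrogenase (Gdh) had 3702 in larval brain and 2972 ± 440 in embryo culture, and the transaminase gene Got2 had 3060 and 3075 ± 466 in the same order. Got1 had 1495 in larval brain and 1425 ± 403 in embryo culture. Ssadh, which completes GABA breakdown, had 936 in larval brain and 1146 ± 533 in embryo culture. Gat, the GABA uptake transporter of glia, was at or under background on all 5 arrays.

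Among 11 measured transporters listed as relatives, 1 fell and 0 rose, against 2.81% and 0.821% of all genes, and 4 had an unadjusted p under 0.05, against 17.3%. Picot, of the same family as VGlut and named for phosphate cotransport, had 396 in larval brain, against 1529, 1652, 1806 and 1680 on culture arrays a to d. Its log2 difference was -1.95 ± 0.36 (adjusted p = 0.0227). The call was lost in 3 of 13 alternatives, without array b among them (adjusted p 0.0656), over a range from 0.00842 to 0.307. Its dimmer probe set was under background on all 5 arrays. Ntl, in the family of DAT and SerT, had 123 in larval brain and 553 ± 315 in embryo culture (-1.68 ± 0.67, adjusted p = 0.258). Its relatives bdg and blot had 891 and 557 in larval brain, against 969 ± 124 and 551 ± 48.0 in embryo culture. List had 141 in larval brain and 300.2 ± 212 in embryo culture. Ndae1, an anion exchanger from outside these families, had 490 in larval brain and 724 ± 104 in embryo culture.

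The gene ine, a transporter of the DAT and SerT family picked here after its values were seen, had 55.3 in larval brain, under background, against 408, 212, 360 and 510 in embryo culture. It was at least 4.30-fold lower, with a fitted log2 difference of -1.98 ± 0.64 that did not pass (adjusted p = 0.157). The gene prt, a putative vesicular transporter related to Vmat and picked in the same way, had 170 in larval brain, above background, against 17.0, 22.5, 25.2 and 33.6 in embryo culture, all under background. The log2 difference was 1.60 ± 0.38 (adjusted p = 0.0616), but against the background of the culture arrays no fold above 1 could be given.

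For the cholinergic label itself, ChAT had 2255 in larval brain, against 1457, 2573, 2846 and 2927 on culture arrays a to d by its brighter probe set (log2 difference -0.07, adjusted p = 0.961). Its other probe set gave 712 in larval brain, below all 4 culture values of 1421, 1093, 881 and 908 (-0.54, adjusted p = 0.593). Both lay above background on all 5 arrays. Transcripts for other transmitters were thus measured beside the enzyme that the driver is taken from. In RNA from many cells, fewer cells of a type and less RNA per cell cannot be told apart, so that these values do not say whether dopamine or GABA genes were on in the same cells as ChAT.

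Of the pan-neuronal list, 10 of 11 genes had positive differences (median 0.84), against 46.3% of all genes. Of them 1 rose past the threshold, nerfin-1, against 0.821% of all genes. The differences were uneven, from -0.52 for Rbp9 and 0.03 for para, both under background on every array, to 3.33 for elav. The mean of the list rests largely on elav, nerfin-1 (3.15) and futsch (2.05), while Csp had 0.39. Scaled to the mean of this list, which lay 1.13 higher on the log2 scale in larval brain, Ddc fell past the threshold (-2.76 ± 0.72, adjusted p = 0.0336), and Vmat and VGAT turned to -1.02 and -0.77, neither of them past it. On that scale 940 probe sets passed, 1.81% of them higher in larval brain, and the median over all probe sets was -1.21, against which these values are read.

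Markers of cell types outside the gate were measured on the same arrays. Background differs between the arrays, and 68.0% of all probe sets lay above it in larval brain, against 59.6%, 53.8%, 61.9% and 48.6% on a to d. Of 11 hemocyte markers, 5 were above background in larval brain, and 11, 10, 5 and 3 on culture arrays a to d. None of these counts was 0. In larval brain Hml and srp were both under 4. The 5 hemocyte markers above background there were Pxn, PPO2, crq, Ppn and Col4a1, at 450.5, 405, 250.5, 176.3 and 131.7. Of 8 muscle markers, 2 were above background in larval brain and between 2 and 7 in embryo culture, with sums of 4241 in larval brain, 3705 of it Actn, and 1969 to 7465 in embryo culture. Of 15 epidermis and cuticle markers, 12 were above background in larval brain and between 5 and 9 in embryo culture, with sums of 7710 in larval brain and 4972 to 11475 in embryo culture. Of 12 glial markers, 10 were above background in larval brain and between 7 and 10 in embryo culture. Their sums were 3897 in larval brain and 4619 to 5995 in embryo culture. Of them 1 fell past the threshold, against 2.81% of all genes. It was Mdr65, with 16.1 in larval brain, under background, and 368 ± 33.8 (SD) in embryo culture (adjusted p = 0.0414). The glial gene gcm went the other way without passing (adjusted p = 0.125), with 674 in larval brain and under background on all culture arrays. The part of all these markers in the values of Ddc, Pu and Tdc1 was not tested.

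**Figure D4:**
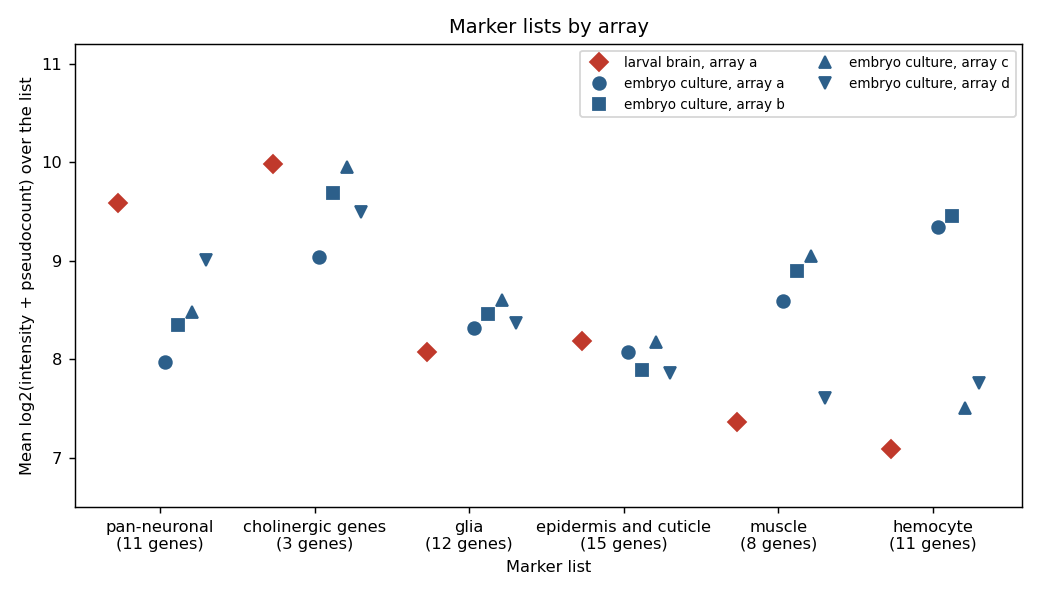
Mean log2(intensity + 47.4) of each marker list on the larval brain array (red diamonds) and on culture arrays a to d (blue symbols). Larval brain is the highest array for the pan-neuronal list at 9.59, and the lowest for the glia, muscle and hemocyte lists at 8.08, 7.36 and 7.09. For the cholinergic and epidermis lists, larval brain at 9.98 and 8.19 is barely above array c at 9.95 and 8.17.

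Profiles most like those of the measurable genes were sought among the 4470 genes above background on all 5 arrays, by the root mean square distance of log2 signal over the arrays after centring each gene on its own mean. Ddc was nearest to rgr (0.0385), wun (0.0800) and l(2)34Fc (0.0829). The nearest to ple were GstD10 (0.0904), Ccp84Ad (0.200) and Kank (0.212). For Vmat they were ORMDL, epsilonTry and Nup98-96 (0.0420 to 0.0623), and for VGAT they were Rnb, CG17059 and bves (0.144 to 0.179). No transmitter gene was among the 3 nearest of another. With only 4 of them among the 4470 genes, that says little on whether they vary together.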

How the data were processed

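The table gives 1 linear intensity per probe set and array, as the authors deposited it. With 2% of values trimmed from either tail, array means lay between 500.06 and 500.08, so the authors had scaled each array; software and background correction are not stated in the labels used here. Of 14010 probe sets, 44 controls were left out and 13966 tested. A pseudocount of 47.4, the 20th percentile over the table, was added before taking log2, with no filter. The test was limma 3.58.1 under R 4.3.3 (lmFit, eBayes with a variance trend, two-sided; 9.11 degrees of freedom), with Benjamini-Hochberg over all probe sets; the fit was tested on simulated data. Of several probe sets for a gene, that with the highest level, averaged over the groups, stood for it. Symbols came from the array's annotation, checked through Entrez identifiers against RefSeq (12394 matched, 0 changed). Values are given for the 10 chosen genes as far as measured and, in lists of related genes, for those past the threshold and up to 5 more with the highest level; ine and prt were added after their values were seen, and other list genes may be named without values. The genes, lists and tests were chosen with earlier results of these data known. The number of arrays limits the precision. Correlations of log2 signal across probe sets were 0.837 to 0.933 between embryo culture arrays and 0.738 to 0.802 between these and larval brain. No array pair shared more than 14 values, so none was taken for a copy. Python 3.11.15, pandas 2.3.3 and matplotlib 3.10.9 were used.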

Additional observations from a re-analysis of the deposited data

How the results depend on the processing

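No paired analysis was possible because the groups share only the replicate letter a. Counts of probe sets past the threshold, 455 here, were 940 when centred on the pan-neuronal list, 303 without the variance trend and 292 to 403 when an embryo culture array was left out (292 without b). The share of calls higher in larval brain was 26.6% here, 1.81% with pan-neuronal centring and 39.0% with the pseudocount at the 40th percentile. Among the 9 transmitter genes, 0 passed here, and 1 passed with pan-neuronal centring (Ddc, -2.76) and 1 with the 3′ index as a covariate (ple, -2.55). No other of the 12 settings gave a call among them. Signs turned only for genes far from the threshold. Vmat went to -1.02 with pan-neuronal centring, -0.30 with the 3′ index, between -0.0023 (without a) and 0.245 (without d) with an array left out, and -0.28 as the mean of its probe sets. VGAT went to -0.77 with pan-neuronal centring and -0.60 with the 3′ index, and to between 9.28e-06 (without b) and 0.63 (without d). DAT went to -0.29 with the 3′ index. The difference of ple kept its sign in every setting, and ran between -1.07 (without a) and -0.40 (without c) with an array left out. Gad1 went to 0.037 with quantile normalization and 0.0163 with median centring, which moves each value by 0.12, and SerT to between -0.469 (without c) and 0.181 (without d). The causes were not tested. Gad1 and Tbh gave no value with dim probe sets left out. The count of 4 genes above background on all arrays was also 4 with the second highest control probe set as background, an alternative chosen after seeing the data. On single arrays that choice did matter, since DAT on c and d and SerT on b then lay above background.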
